A study of Bos taurus with 40 samples.

Results

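OR4X2B (LOC510901), OR4X16 (LOC509884) and OR4X2 (LOC540128) are bovine olfactory receptor genes of the OR4X subfamily. They are 3 of the 59051 rows in the deposited RNA count tables. They were chosen because, among rows with a gene symbol and a higher mean in ooplasm biopsies of the blastocyst group, they gave the 3 smallest p-values in the contrast of the fate groups. Their difference between the fate groups in those biopsies is therefore given here as a description, with no test. The fit behind that choice called 0 of 21174 rows at an edgeR adjusted p under 0.05. It gave OR4X2B, OR4X16 and OR4X2 edgeR adjusted p of 0.600, 0.670 and 0.670.

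Olfactory receptors are G protein-coupled receptors that bind odorants in the cilia of olfactory sensory neurons, where they signal through a specialised G protein and cyclic AMP. They form the largest gene family of mammals, lie in clusters of close copies and mostly have an uninterrupted coding exon. RNA from some of them has been found outside the nose, most often in testis and sperm. No ligand or function is given for these OR4X receptors in the sources used here, and their symbols name sequence families and not tissues.

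The study compared bovine oocytes that reached the blastocyst stage with oocytes that stopped at cleavage. Granulosa cells, which line the inside of a follicle, were taken per follicle. After maturation in vitro, cumulus cells, which surround the oocyte, were collected together with a biopsy of ooplasm and a polar body. RNA was sequenced in 4 blastocyst-fate libraries (labels B20, B21, D24 and D27 for granulosa cells and biopsies) and 4 cleavage-fate libraries (B14, B23, D10 and D29) of each cell type. A further set held 4 biopsies and 4 whole oocytes with the numbers 2, 3, 6 and 16, and its labels give no fate. The genotype field of every sample reads diploid, and no strain, animal age or treatment is named. The labels do not tell whether samples share an animal, and p-values here reflect the spread among samples, which may be technical. Library totals, in units of 1000000 counts, ranged from 9.88 to 17.7 in granulosa, 7.96 to 9.59 in cumulus, 16.8 to 22.6 in fate biopsy and 13.4 to 23.8 in matched libraries. CPM here is a count per 1000000 counts of its library. H1FOO, the linker histone of oocytes, stood at 533 to 1548 CPM in the 16 ooplasm libraries and at 0.109 CPM or less in cumulus libraries. CTGF, a secreted matrix protein of follicle cells, stood at 442 to 587 CPM in cumulus libraries and at 1.66 to 11 CPM in ooplasm. In granulosa libraries CTGF ranged from 1.11 CPM in B20 to 186 in D29, with B20 below and D24 (7.43) within the ooplasm range. CYR61, another secreted matrix protein of follicle cells, stood at 19.3 to 25.4 CPM in cumulus, 0 to 1.10 in ooplasm and 2.63 (B20) to 501 (D29) in granulosa libraries.

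By RefSeq (assembly ARS-UCD2.0) the OR4X genes lie on chromosome 15 in a run of olfactory receptor genes. Within 5 genes of a member on either side, RefSeq lists 17 olfactory receptor genes, of which 13 matched a row. The order runs OR4B1, OR4B1H, OR4B1F, OR4X2, OR4X5, OR4C45, OR4X17, OR4S1, OR4X16, OR4B1GP and OR4X2B, so OR4X2 is separated from the other pair. Each of the 3 chosen genes is annotated there as protein coding with a span of 930 bases, and their counts are set side by side without a correction for length. The annotation used for counting is not named, so equal counted lengths are assumed and not known. The annotated span of OR4C45 overlaps both OR4X16 and OR4X2B, and that of OR4X17 overlaps OR4X16. OR4X17 matched no row and was not analysed here. Whether reads were counted by strand, and how reads matching several genes were treated, is not given in the sources used here, so counts shared within the cluster cannot be told apart from counts of each gene.

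Each OR4X row also had a companion among the rows with an Ensembl identifier. OR4X2 and its companion held identical counts in 32 of 32 libraries. OR4X16 differed from its companion in 1 library, biopsy D27, by 2 of 677 counts. OR4X2B differed in 5 libraries, with 5585 counts in all against 5521. Identical companions were found for 71 of 6219 rows with a LOC identifier or symbol and at least 100 counts (1.14%), and for 15 of 108 olfactory receptor rows (13.9%). The companions were not counted as further genes here.

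In the fate biopsies all 3 receptors were high in the blastocyst group and low in the cleavage group. OR4X2B stood at 9.63 CPM in B20, 15.7 in B21, 2.91 in D24 and 37.6 in D27, against 0.975 in B14, 0.119 in B23, 0.156 in D10 and 2.09 in D29. OR4X16 stood at 10.9 CPM in B20, 18.2 in B21, 10.1 in D24 and 33.6 in D27, against 3.72 in B14, 2.14 in B23, 1.97 in D10 and 5.97 in D29. OR4X2, the least abundant, stood at 2.67 CPM in B20, 5.62 in B21, 1.31 in D24 and 10.6 in D27, against 0.266 in B14, 0.0595 in B23, 0.0520 in D10 and 0.471 in D29. The groups did not overlap for any of the 3, D27 was the highest blastocyst library for each and D29 the highest cleavage library for each. Without overlap, the same order of the fates must hold within labels that start with B and within those that start with D. It is therefore no separate result, and the labels do not explain these letters. All 4 blastocyst libraries lay above all 4 cleavage libraries in 423 of 21174 rows that passed the filter on low counts (2.0%). Since the rows were chosen on this contrast, nothing is read from their share.

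The mean of OR4X2B was 16.5 ± 15.0 CPM in the blastocyst group and 0.836 ± 0.927 in the cleavage group (SD, n = 4), a ratio of 19.7. That ratio was 11.3 without D27 and 39.5 without D29. OR4X16 stood at 18.2 ± 10.9 against 3.45 ± 1.85 CPM, a ratio of 5.26. OR4X2 stood at 5.04 ± 4.10 against 0.212 ± 0.199 CPM, a ratio of 23.8 that was 15.1 without D27 and 40.1 without D29. OR4X16 therefore had the smallest ratio, through its higher cleavage level, while its blastocyst level was close to that of OR4X2B. The next rows under the same ordering, which were left out, were SLC5A3, an inositol transporter, at 75.5 ± 10.1 against 39.9 ± 5.34 CPM, HIST1H2BB, a core histone, at 88.5 ± 33.8 against 41.7 ± 8.50 CPM, and C7H5orf30 at 4.78 ± 3.14 against 0.200 ± 0.293 CPM. H1FOO stood at 755 to 1209 CPM in the blastocyst biopsies and 680 to 1393 in the cleavage biopsies. The remaining 1016 olfactory receptor rows summed to 99.6 ± 29.4 CPM in the blastocyst group and 105 ± 19.2 in the cleavage group, with overlapping ranges of 75.0 to 140 and 82.4 to 129 CPM.

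**Figure D1:**
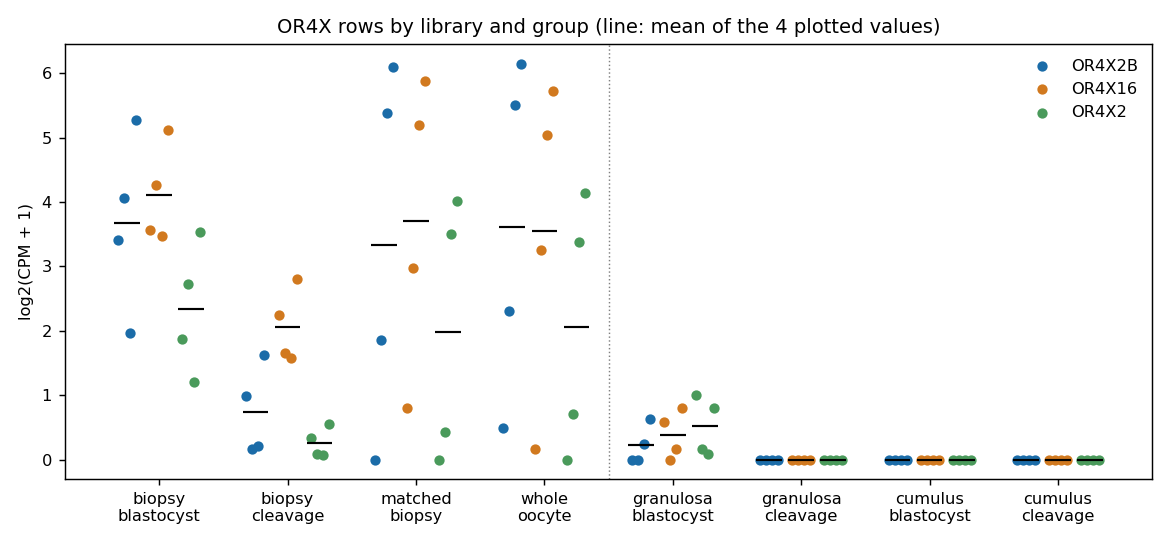
Level of each OR4X row in the 32 RNA libraries as log2(CPM + 1), with 4 libraries per group and a line at the mean of the plotted values. Ooplasm groups are left of the dotted line and somatic groups right of it; the rows reach 69.8 CPM in whole oocytes and are at 0 in all 8 cumulus libraries and all 4 granulosa libraries of the cleavage group.

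The receptors varied together from library to library. Over the 16 ooplasm libraries the Pearson correlation of log2(CPM + 1) was 0.961 between OR4X2B and OR4X16, 0.985 between OR4X2B and OR4X2 and 0.941 between OR4X16 and OR4X2. These points share their library, libraries of the matched set share their number, and the rows may share reads. The libraries also include the fate biopsies, where the rows were chosen for the same order of the fates, which favours high values. The values are therefore descriptions. The make-up of the counts was not constant, however. In the 6 libraries with at least 500 counts over the 3 rows, OR4X2B held 39.8% to 51.7% of them, OR4X16 37.3% to 46.0% and OR4X2 10.8% to 14.2%. In the 10 libraries with fewer counts OR4X16 held a median of 70.2% and OR4X2B a median of 22.4%. OR4X2B thus had 1.12 counts for each OR4X16 count in biopsy D27 and 1.38 in oocyte 6, but 0.0556 in biopsy B23 (2 against 36 counts) and 0.0789 in biopsy D10 (3 against 38 counts). Oocyte 2 went the other way, with 7 counts against 2.

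**Figure D2:**
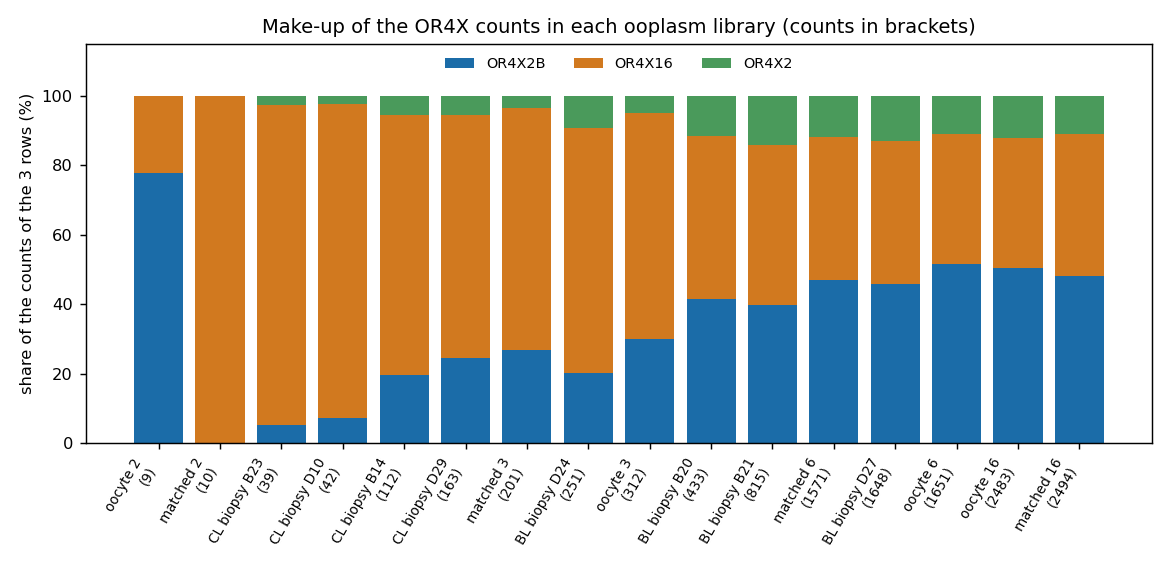
Share of the counts of the 3 OR4X rows held by each row (%, vertical axis) in the 16 ooplasm libraries, ordered by their summed count, which is given in brackets and runs from 9 to 2494 (BL, blastocyst; CL, cleavage; matched, matched biopsy). OR4X16 holds the larger part in most libraries under 500 counts, and OR4X2B and OR4X16 hold similar parts in the 6 libraries above it.

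Whole oocytes and their matched biopsies were not part of the contrast that chose the rows, and both covered a wide range of OR4X levels. That contrast kept rows counted in ooplasm biopsies, so counts in these samples were also favoured by the choice. OR4X2B stood at 0.406, 3.95, 44.3 and 69.8 CPM in whole oocytes 2, 3, 6 and 16, and at 0, 2.63, 40.7 and 67.2 CPM in the biopsies of these numbers. OR4X16 stood at 0.116, 8.53, 32 and 51.8 CPM in the oocytes and at 0.744, 6.83, 35.8 and 57.5 CPM in the biopsies. OR4X2 stood at 0, 0.631, 9.46 and 16.7 CPM in the oocytes and at 0, 0.342, 10.3 and 15.1 CPM in the biopsies. Numbers 6 and 16 were high and number 2 was near 0 for every row in both kinds of sample, so single oocytes differed by 172-fold in OR4X2B (7 to 1253 counts). For OR4X16 the highest oocyte held 930 counts and the lowest held 2. H1FOO rose in the same order over a narrower range, at 533, 563, 880 and 921 CPM in oocytes 2, 3, 6 and 16. In the matched biopsies of these numbers H1FOO stood at 534, 1293, 1548 and 847 CPM, a different order. Since these oocytes carry no fate label, their high and low libraries cannot be assigned to a fate.

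A biopsy and the whole oocyte of its number gave close OR4X levels. The ratio of biopsy to oocyte CPM at numbers 3, 6 and 16 was 0.667, 0.919 and 0.962 for OR4X2B. It was 0.801, 1.12 and 1.11 for OR4X16 and 0.542, 1.09 and 0.906 for OR4X2. On the log2(CPM + 1) scale the mean absolute difference was 0.28 in the 4 same-number pairs and 3.5 in the 12 pairs of different numbers for OR4X2B. It was 0.31 against 2.99 for OR4X16 and 0.13 against 2.52 for OR4X2. For each row all 4 biopsies were closer to their own oocyte than to any other oocyte. Pairs of different numbers overlapped with the same-number pairs for OR4X16 alone, where the widest same-number difference was 0.64, at number 2 with 10 and 2 counts, and the smallest difference between numbers was 0.52.

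Between biopsies and whole oocytes as groups, no OR4X row passed the test. The log2 fold change of biopsies over oocytes was -0.21 (SE 1.48) for OR4X2B, -0.01 (SE 1.17) for OR4X16 and -0.16 (SE 1.47) for OR4X2, with edgeR quasi-likelihood adjusted p of 0.996, 0.999 and 0.996 (Benjamini-Hochberg over all rows). In that fit 0 of 18540 rows passed (0.00%), 1028 had an unadjusted p under 0.05, and the DESeq2 Wald test called 190 of 37247 rows. With the numbers as pairs the standard errors were smaller, and the values were -0.69 (SE 0.43) for OR4X2B, 0.12 (SE 0.44) for OR4X16 and -0.47 (SE 0.61) for OR4X2, none of them past the threshold. The sign of each difference also turned when single libraries were left out, so no direction is given.

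**Figure D3:**
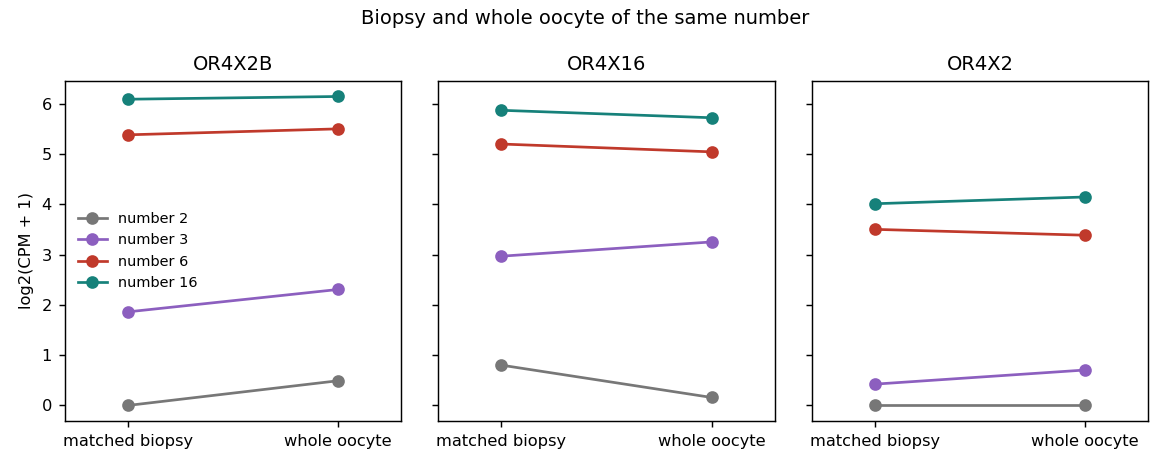
Level of each OR4X row as log2(CPM + 1) in the biopsy (left) and the whole oocyte (right) of numbers 2, 3, 6 and 16, each pair joined by a line. Numbers 6 and 16 are high in both kinds of sample and number 2 is near 0. For OR4X2B the same-number pairs differ by 0.28 on average and pairs of different numbers by 3.5.

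Cumulus cells, the nearest somatic neighbours of the oocyte, gave no count for any OR4X row. All 8 cumulus libraries were at 0, in both fates, which over their pooled counts allows a level of up to 0.0429 CPM, the floor of 3 counts over the group. Whole oocytes held 2207 counts of OR4X2B, 1751 of OR4X16 and 497 of OR4X2. The pooled level was at least 658-fold higher in oocytes for OR4X2B, at least 522-fold for OR4X16 and at least 148-fold for OR4X2. Oocyte 16 carried much of this: without it the bounds were 369-fold, 318-fold and 76.2-fold. None of the 3 rows passed the filter on low counts in this set. In the fit without that filter all 3 were called higher in oocytes, with edgeR adjusted p of 0.0148 for OR4X2B, 0.0129 for OR4X16 and 0.0162 for OR4X2, where 45.2% of all rows were called higher. The calls ended without oocyte 3, at adjusted p of 0.0609, 0.0688 and 0.0654. The rows were chosen among rows counted in ooplasm, which favours such calls. OR4X2 had a count in 3 of 4 oocytes, and the other receptors in 4 of 4.

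Granulosa cells held few counts, and all of them were in the blastocyst group. OR4X2B had 0, 0, 3 and 6 counts in B20, B21, D24 and D27, OR4X16 had 5, 0, 2 and 8, and OR4X2 had 10, 2, 1 and 8. All 4 granulosa libraries of the cleavage group were at 0 for every row. Whole oocytes stood above the 8 granulosa libraries by a ratio of pooled CPM of 371 for OR4X2B, 177 for OR4X16 and 35.8 for OR4X2. Without oocyte 16 these ratios were 208, 107 and 18.4. OR4X16 (log2 9.67, SE 1.34, edgeR adjusted p = 4.60e-05) and OR4X2 (log2 7.61, SE 1.42, edgeR adjusted p = 0.00049) were called higher in oocytes, where 30.1% of all rows were. Both rows passed the filter on low counts mainly through the oocytes. The choice among rows counted in ooplasm favours calls in this direction. OR4X2B did not pass the filter on low counts, and in the fit without it was called as well (log2 10.70, SE 1.37, edgeR adjusted p = 1.87e-05, with 30.3% of all rows called higher). Without oocyte 16 the log2 values fell to 9.98 for OR4X2B, 9.06 for OR4X16 and 6.77 for OR4X2, and without granulosa library D27 that of OR4X16 was 10.32. With library totals in place of TMM the median of all rows moved from -0.79 to -1.62, and OR4X16 and OR4X2 stood at 8.84 and 6.79.

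Between the fates, the granulosa counts lay in the blastocyst group, at a level close to the counting limit. The blastocyst group held 9 counts of OR4X2B, 15 of OR4X16 and 21 of OR4X2 against 0 in the cleavage group, whose pooled counts allow up to 0.0459 CPM. The pooled level was at least 3.70-fold, 6.17-fold and 8.64-fold higher. Without D27 these bounds were 1.55-fold, 3.62-fold and 6.73-fold, and without B20 the bound of OR4X2 was 5.57-fold. None of the rows passed the filter on low counts, and in the fit without it none was called, with edgeR adjusted p of 0.140 for OR4X2B, 0.0878 for OR4X16 and 0.0543 for OR4X2, while 19.9% of all rows were called higher. The DESeq2 Wald test called OR4X2 (adjusted p = 0.0301) where it called 31.4% of all rows higher, and not OR4X16 (adjusted p = 0.133).

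The same granulosa libraries differed in much else. All olfactory receptor rows together stood at 257 to 1593 CPM in the blastocyst group and 54.9 to 89.0 CPM in the cleavage group. Of the 1019 receptor rows with a symbol, 33.6% to 79.0% had a count in the blastocyst group and 2.45% to 13.2% in the cleavage group. Of these rows 49 passed the filter on low counts, and no OR4X row was among them. The edgeR fit called 30 of the 49 higher in the blastocyst group and 0 lower, beside 4884 of 22934 rows called higher over all. Counts in the blastocyst group alone were thus not particular to the OR4X rows. H1FOO stood at 34.2, 9.66, 5.83 and 19.1 CPM in B20, B21, D24 and D27, and at 0.234 to 5.10 CPM in the cleavage group. CTGF stood at 1.11, 30.5, 7.43 and 37.6 CPM in B20, B21, D24 and D27 and at 11.4 to 186 CPM in the cleavage group. CYR61 stood at 2.63, 148, 30.9 and 89.0 CPM in B20, B21, D24 and D27 and at 67.2 to 501 CPM in the cleavage group. Rows detected with 5 counts or more numbered 26373 to 28629 in the blastocyst group and 18065 to 22039 in the cleavage group. The part of any of these in the OR4X counts was not tested. The OR4X rows are 3 of these 1019 receptor rows. They held 0.0487% to 0.258% of the receptor counts in the blastocyst granulosa libraries, against 12.3% to 52.2% in the biopsies of the same follicles. Those biopsies held 1313 counts of OR4X2B, 1432 of OR4X16 and 402 of OR4X2, against the 9, 15 and 21 counts of the granulosa cells. Follicle D27 held 758 of the 1313 biopsy counts and 6 of the 9 granulosa counts of OR4X2B. For OR4X16 it held 677 of 1432 and 8 of 15. For OR4X2 it held 213 of 402 and 8 of 21, while B20 held more of the granulosa counts (10) with 50 biopsy counts. The granulosa counts were close to the counting limit, and a link between the cells of a follicle was not tested. By summed counts OR4X2 was the highest of the 3 rows in granulosa cells and the lowest in the biopsies, but in granulosa library D24 it was the lowest (1 count) and in D27 it tied with OR4X16 (8 counts each). In these bulk libraries fewer cells with the RNA and less RNA per cell cannot be told apart.

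By group means, the order of levels was whole oocytes (29.6 CPM), matched biopsies (27.6), blastocyst biopsies (16.5), cleavage biopsies (0.836), blastocyst granulosa cells (0.185) and the groups at 0 for OR4X2B. The ranges of the first 3 groups overlapped, and so did those of cleavage biopsies (0.119 to 2.09) and blastocyst granulosa cells (0 to 0.554). For OR4X16 the means were 25.2 CPM in matched biopsies, 23.1 in whole oocytes, 18.2 in blastocyst biopsies, 3.45 in cleavage biopsies and 0.342 in blastocyst granulosa cells. The range of cleavage biopsies (1.97 to 5.97) lay wholly above that of blastocyst granulosa cells (0 to 0.739). For OR4X2 the means were 6.70 CPM in whole oocytes, 6.46 in matched biopsies, 5.04 in blastocyst biopsies, 0.485 in blastocyst granulosa cells and 0.212 in cleavage biopsies, and the ranges of the last pair overlapped.

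Within the olfactory receptor family, few rows were counted in most ooplasm libraries, and the OR4X rows were among them. Of 1019 receptor rows with a symbol 630 had a count in some ooplasm library, but 19 had 5 counts or more in at least 8 of 16. OR4X16 reached 5 counts in 15 libraries, OR4X2B in 13 and OR4X2 in 12. The OR4X rows were chosen among rows that passed the filter on low counts in the fate biopsies, which are part of these libraries. Their place among the 19 was thus favoured by the choice. OR2A69 and OR4B1H reached it in 16 of 16. Of the counts of these 1019 rows, the OR4X rows held 66.8% in oocyte 16 (95% Wilson interval 65.2% to 68.3%, which covers counting error only) and 58.4% in oocyte 6. Receptor genes without a symbol or a row are not in this total. Their share was 9.80% in oocyte 3 and 0.518% in oocyte 2. In the fate biopsies it was 14.2%, 32.7%, 12.3% and 52.2% in B20, B21, D24 and D27, and 3.70%, 2.13%, 2.58% and 7.77% in B14, B23, D10 and D29. The downstream signalling genes of olfaction could hardly be looked up. Of 30 listed transduction and trafficking genes 1 matched a row: OMP, the olfactory marker protein, which had 0 to 10 counts in ooplasm libraries, 1 to 21 in cumulus and 0 to 9 in granulosa libraries.

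The neighbouring receptor genes did not follow the OR4X rows as a block. OR4B1H, which lies before OR4B1F and OR4X2, stood at 15.0 to 19.3 CPM in the 4 whole oocytes, a narrow range beside that of OR4X2B. In the fate biopsies OR4B1H stood at 19.4 ± 10.3 CPM in the blastocyst group (10.8 to 33.8) and 10.9 ± 1.37 in the cleavage group (9.22 to 12.1), and these ranges overlapped. OR4C45, whose span overlaps OR4X16 and OR4X2B, was at 0 in all 4 blastocyst biopsies and at 100, 6, 0 and 3 counts in B14, B23, D10 and D29, so the groups overlapped at 0 and B14 (4.43 CPM) held most of the counts. It stood at 1.45 to 11.7 CPM in whole oocytes. OR4S1, between OR4X17 and OR4X16, stood at 1.31 ± 2.21 CPM in the blastocyst biopsies (0 to 4.62) and at 0 in all 4 cleavage biopsies. These groups too overlapped at 0. In oocytes OR4S1 stood at 0.546 to 1.95 CPM. These differences were not tested. OR4B1F, between OR4B1H and OR4X2, stood at 1.04 ± 1.21 against 0.653 ± 0.680 CPM, and its neighbour OR4B1 at 0.307 ± 0.446 against 0.221 ± 0.10.

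The remaining neighbours were close to the counting limit. OR4X5, next to OR4X2 and held in the tables under an older symbol, had 5 counts in 1 fate biopsy and 0 in all whole oocytes and matched biopsies. The pseudogene OR4C5P had at most 29 counts in a fate biopsy and 0 in the matched set. OR4C12 had at most 15 counts in a fate biopsy and 17 in an oocyte, OR4C189P at most 3 and 18, and OR4C3B 1 count in a single biopsy. All 10 neighbouring rows were at 0 in all cumulus libraries. OR4X2 was high in the same oocytes as OR4X16 and OR4X2B. Of the rows between OR4X2 and OR4X16, OR4X5 had no count in whole oocytes. OR4C45 stood at 1.45 to 11.7 CPM there and OR4S1 at 0.546 to 1.95. A cause of the shared pattern was not tested, and reads shared among the OR4X copies cannot be told apart from counts of each gene.

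**Figure D4:**
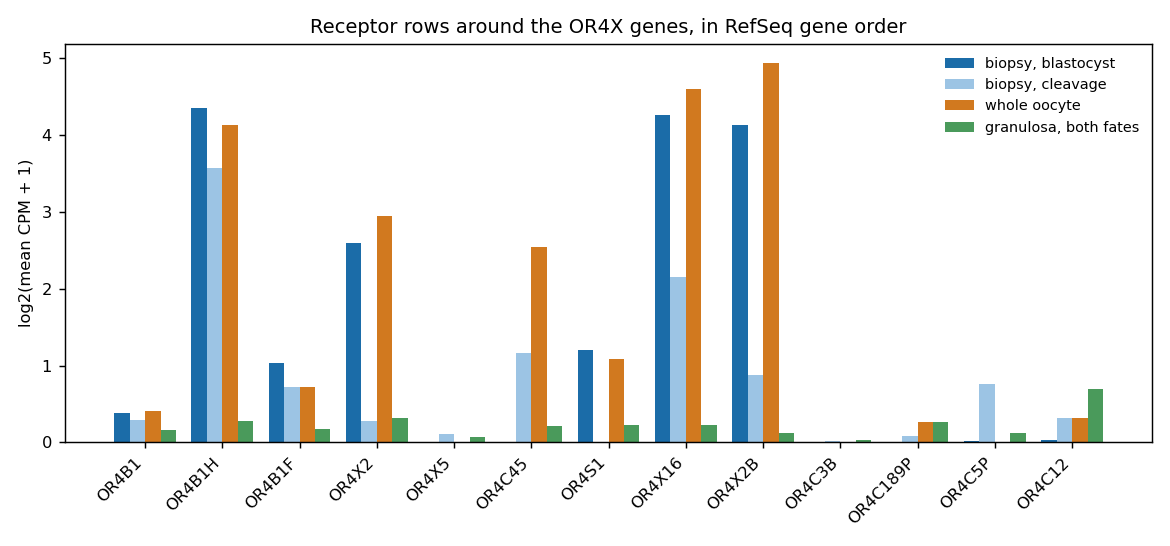
Mean level as log2(mean CPM + 1) of the 13 olfactory receptor rows around the OR4X genes, in RefSeq gene order, in blastocyst biopsies, cleavage biopsies, whole oocytes (4 libraries each) and granulosa cells (8 libraries). Gene lengths differ, so bars compare groups within a row; OR4X2, OR4X16 and OR4X2B are higher in the blastocyst than in the cleavage biopsies, and the cleavage mean of OR4C45 rests mostly on library B14.

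The 5 rows with a symbol whose level over the 16 ooplasm libraries was most like the summed OR4X level were TRPC5OS, COL6A6, MARCH3, RHOB and RESTA, among 745 rows with a mean of at least 1 CPM. Their Pearson r on the log2(CPM + 1) scale was 0.852, 0.746, 0.704, 0.686 and 0.682. Over all 32 RNA libraries r was 0.937 for TRPC5OS, 0.501 for COL6A6, 0.0747 for MARCH3, -0.490 for RHOB and -0.595 for RESTA. The OR4X rows were low in somatic cells, so r over 32 libraries also depends on how low a row is there. The highest somatic level was 0.810 CPM for TRPC5OS, 112 for COL6A6, 136 for MARCH3, 325 for RHOB and 130 for RESTA. The high r of TRPC5OS over 32 libraries is therefore no further sign of shared variation within ooplasm. COL6A6 is a collagen VI chain and MARCH3 a membrane-bound ubiquitin ligase. TRPC5OS, named as an opposite-strand gene of the cation channel TRPC5, stood at 0.290, 12.1, 50.9 and 32.9 CPM in oocytes 2, 3, 6 and 16. It stood at 0, 18.0, 34.4 and 37.2 CPM in the biopsies of these numbers. Its mean was 23.9 CPM in blastocyst biopsies (2.0 to 43.8) and 5.64 in cleavage biopsies (0.471 to 15.9), with overlapping groups. It was at 0 in all cumulus libraries and at 0.810 CPM or less in granulosa cells.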

How the data were processed

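Per the labels' protocols, RNA was amplified with a SMART-Seq HT kit and libraries were prepared with a Nextera XT kit. Trim Galore, cutadapt, STAR and featureCounts are named in the submitters' processing notes, with no version. Their settings, the genome build and the annotation are not stated there. The authors deposited 4 tables of raw counts, whole numbers per row and library, and these were used as deposited. Libraries were grouped by their labels. Names and gene order came from a RefSeq table of ARS-UCD2.0, whose coordinates gave the order, span and overlap of genes and are not printed, since the build of the files is not named. The RefSeq table gave 1105 of 7849 LOC rows a symbol, and 2473 rows carried a symbol in all. Of the marker lists, H1FOO, TCL1B, RNF17, MORC1, CTGF and CYR61 matched a row. The polar body methylation calls were not used.

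Every comparison used the libraries of its own groups, fitted with edgeR 4.0.16 in R 4.3.3: filterByExpr, TMM scaling, robust quasi-likelihood F tests and a Benjamini-Hochberg adjusted p under 0.05 over all rows tested. Rows of interest removed by filterByExpr were read from the same fit without the filter, as an alternative. The standard error is the absolute log2 fold change divided by the square root of F. CPM used library totals without TMM, with a pseudocount of 1 on the log2 scale. A group at 0 was set to a floor of 3 counts over the group. Intervals and floors cover counting error only, since the reads carry no molecular identifiers. The fits were run on simulated counts with known fold changes and the same spread for all rows. Those fold changes were smaller than the OR4X ratios of oocytes over granulosa cells, so the simulation does not speak for these rows. Tables and figures used Python 3.11.15, pandas 2.3.3 and matplotlib 3.10.9.

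The named rows were the 3 receptors, further OR4X rows, olfactory receptor genes within 5 genes of them with a count in ooplasm, the 5 rows most like their summed level, and the next 3 rows under the choosing order. The receptors and these lists were chosen with earlier results of these data known. Alternatives were DESeq2 1.42.0 (Wald test, and its size factors in edgeR), library totals, no filter, each library left out, the label letter as a covariate and a replicate block. As a check of pairing in the matched set, each library's deviation from its group mean was correlated across rows. The 4 same-number pairs gave 0.193 to 0.314, all above the bound of 0.1, and numbers were treated as pairing the samples. The crossed pairs of numbers 6 and 16 gave 0.224 and 0.232, above the 0.193 and 0.204 of the same-number pairs 6 and 16, so this check does not tell those numbers apart. Pairs of libraries within a group differed by more than counting noise, since chi-square over its degrees of freedom was at least 4.70 in 48 pairs.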

Additional observations from a re-analysis of the deposited data

How the results depend on the processing

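The low counts of the OR4X rows in somatic cells limited the tests. The calls against cumulus cells, and that of OR4X2B against granulosa cells, rested on fits without the filter on low counts. The fits that left out a library without the filter were chosen after seeing the data. In cumulus cells the rows were at 0, so the fate contrast there gave no value for them. Settings in which the filter removed a row gave no value for it.

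With single libraries left out, the fitted log2 fold change of oocytes over cumulus cells, which is no bound since cumulus was at 0, was 11.20 to 12.35 for OR4X2B, 10.96 to 12.01 for OR4X16 and 8.93 to 10.20 for OR4X2. Without oocyte 3 the values were 12.30, 11.85 and 10.16 and the calls ended (edgeR adjusted p of 0.0609, 0.0688 and 0.0654), while each row was called in the other 11 fits. With all libraries that fit called 45.2% of all rows higher in oocytes. Against granulosa cells the ranges were 9.98 to 11.24, 9.06 to 10.32 and 6.77 to 8.17. All 3 rows were called in each of the 12 fits, which were unfiltered for OR4X2B and filtered for the others. With the filter, OR4X2B gave no value without oocyte 3, 6 or 16. OR4X16 and OR4X2 passed the filter mainly through the oocytes. With all libraries 30.3% of all rows were called higher without the filter and 30.1% with it. For biopsies against whole oocytes the ranges were -1.21 to 0.53, -0.87 to 0.62 and -1.08 to 0.70, with 4 of 8 fits keeping the sign for each row. In the granulosa fate contrast they were 3.03 to 4.44, 4.02 to 5.10 and 4.68 to 5.58, and no row was called. The log2 ratio between fates in biopsies was 3.49 to 5.30 for OR4X2B, 1.92 to 2.80 for OR4X16 and 3.92 to 5.32 for OR4X2.

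With the replicate block, the pairs by number in the matched set, OR4X16 turned from -0.01 to 0.12, and the block changed no call among the 3 rows. It called 0 rows at the adjusted threshold and 1262 without adjustment. With library totals OR4X16 turned to 0.13. The DESeq2 Wald test moved OR4X2 in the granulosa fate contrast past the threshold, at a log2 fold change of 5.21. No paired analysis was possible for cumulus cells because their columns carry no title number. Granulosa cells and biopsies of a follicle were compared without a test.

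Counts over all rows moved more. Without the filter, rows called higher in oocytes were 17083 against 9258 with it for cumulus cells and 13264 against 7915 for granulosa cells, and the matched set gave 13 calls. With library totals the split of higher and lower calls was 7444 and 9769 against 9258 and 7950 for cumulus cells, and 6059 and 13084 against 7915 and 10588 for granulosa cells. The DESeq2 Wald test called 190 rows in the matched set and 11059 rows higher in the blastocyst granulosa cells. In that contrast edgeR called 4884 rows higher, with a range of 2463 (without D27) to 7950 (without B23), and 3108 without B20. Over all 32 libraries r turned to -0.490 for RHOB and -0.595 for RESTA. The causes of these changes were not tested.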
